A study of Homo sapiens with 9 samples.

Results

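The genes TECR, PROX1, TFAP2C and PRSS58 lie near peaks of open chromatin that were strong in non-stimulated Jurkat T cells and were absent from the list labelled as resting cells after stimulus withdrawal (SW DMSO). The 4 loci were selected on measured values, namely the NS peak score together with the lack of a peak in the list labelled SW DMSO. All merged regions of the 4 peak lists within the gene body or 50 kb of the transcription start site (TSS) were taken, and within 300 kb for PROX1, where the leading peak lies far upstream. This gave 34 regions of 40703 on the autosomes, X and Y, with 10 at TECR, 16 at PROX1, 4 at TFAP2C and 4 at PRSS58.

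FAIRE-seq, which recovers DNA that is not held by nucleosomes after formaldehyde cross-linking, was performed on Jurkat clone E6-1, a human T-cell leukaemia line, so each library is from cells of 1 clone. Cells were left non-stimulated (NS), stimulated for 4 h, as the labels give it (the study's methods give a shorter time), with PMA and a calcium ionophore (ST), washed and rested for 1 day (SW), or stimulated again for 2 h (RS), after DMSO vehicle or after 15 μM rottlerin, an inhibitor of protein kinase C. Of the 9 samples, total input included, 4 had a peak list, labelled NS DMSO, SW DMSO, NS rottlerin and SW rottlerin, each from 1 library, and the other 5 were not analysed here. The labels and the study's methods differ on these lists: the methods call peaks on the DMSO samples of the 4 states, whereas the labels place 2 of the lists on rottlerin samples. Merging the 4 lists gave 40731 regions in all, the same number that the methods report for the pooled DMSO samples. The rottlerin labels may therefore not hold, and which cells each list came from was not tested. The lists are named by their labels throughout, without taking the labels as settled. Rottlerin, stimulus withdrawal and the identity of the list cannot be told apart in the other 3 lists, and with 1 library per list no test, replicate error or p-value was possible.

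The lists held 18977 (NS DMSO), 20132 (SW DMSO), 23835 (NS rottlerin) and 30409 (SW rottlerin) peaks. A peak that is absent from a list was not called at the depth of that library, which is unknown here. Promoter peaks, within 1 kb of the TSS, were found in at least 1 list at 6 of 8 T-cell genes, and at CD28, CD3D and CD3E in all 4 lists, beside 47.3% and 31.8% of all 20163 protein-coding genes. No promoter peak was found in any list at 3 B-cell, 3 myeloid, 3 erythroid and 3 lymphatic endothelial genes, and of 3 epithelial genes only KRT8 had one, in the lists labelled SW DMSO and NS rottlerin.

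TECR encodes the enoyl-CoA reductase that completes each round of very-long-chain fatty acid elongation in the endoplasmic reticulum, and it is broadly used across tissues. PROX1 and TFAP2C encode transcription factors that define other lineages: PROX1 specifies lymphatic endothelium, and TFAP2C, a member of the AP-2 family, acts in trophoblast, germ cells and ectoderm. PRSS58 encodes a trypsin-like serine protease and stands at the edge of the T-cell receptor beta locus, where trypsinogen-type genes and V segments are interspersed.

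Each locus had 1 leading region, the site of the NS peak that brought it into the set. The leading region of TFAP2C, chr20:55251104-55251376 on hg19, is shown first because it was the one called in the NS list alone, with its plus-strand sequence from GRCh37. A weaker region of PROX1 that was also in the NS list alone, and the strongest PROX1 region that lacked an NS peak, follow for comparison, whole where the region was 300 bp or less and otherwise as its central 300 bp. Capitals mark matches on either strand to the bHLH cores (E-boxes) CACCTG, with CAGCTG and also CATCTG as the other forms, RUNX TGTGGTT, AP-1 TGAGTCA, ETS ACAGGAAG or CCGGAAG, and AP-2 GCCNNNGGC. CAGCTG reads the same on both strands, and the E-box cores were counted separately.
TFAP2C leading region: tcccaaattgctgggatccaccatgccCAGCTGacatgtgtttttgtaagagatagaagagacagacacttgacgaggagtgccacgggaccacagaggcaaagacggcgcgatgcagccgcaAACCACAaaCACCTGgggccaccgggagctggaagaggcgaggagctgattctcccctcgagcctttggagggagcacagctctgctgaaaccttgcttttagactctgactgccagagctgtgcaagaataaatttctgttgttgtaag
PROX1 NS-alone region beside the leading one: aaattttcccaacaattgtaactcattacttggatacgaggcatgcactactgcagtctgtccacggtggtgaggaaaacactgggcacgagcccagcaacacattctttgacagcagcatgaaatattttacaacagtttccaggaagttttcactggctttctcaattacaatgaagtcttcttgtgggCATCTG
PROX1 region without an NS peak, central part: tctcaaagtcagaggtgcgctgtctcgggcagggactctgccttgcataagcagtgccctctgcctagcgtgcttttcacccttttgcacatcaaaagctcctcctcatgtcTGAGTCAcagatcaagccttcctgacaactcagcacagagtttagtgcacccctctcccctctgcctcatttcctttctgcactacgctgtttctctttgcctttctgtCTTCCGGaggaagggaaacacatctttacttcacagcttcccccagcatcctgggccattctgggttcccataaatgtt

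The leading regions were ranked 1, 3, 4 and 5 by q-value, smallest first, among all NS peaks without a peak in the list labelled SW DMSO. Those of PROX1 and TFAP2C shared a score of 171, and the q-value set their order. The score is the whole part of 10 times −log10 of the q-value, and the fold enrichment is the pile-up over the total input as MACS2 gives it. At the limit of this choice, the PRSS58 peak had a score of 160 and a fold enrichment of 7.22, and the next peak, outside the 4 loci, had 156 and 7.52. These NS values chose the loci and are a description.

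At TECR the leading region had the highest NS fold of the 34 regions, 8.77, and a score of 198, below the 247 of the TECR promoter region. It ranked 39 by fold and 695 by score among the 18977 NS peaks, and 3.75% of them had a score at or above it. No peak was called in the list labelled SW DMSO, whose nearest peak lay 10.5 kb away. The region was called with lower enrichment in the other lists, at 5.63-fold in NS rottlerin and 5.08-fold in SW rottlerin.

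At PROX1 the leading region, 415 bp wide, had an NS fold of 6.51 and a score of 171. It was absent from the list labelled SW DMSO, where the nearest peak was 38.5 kb away. Fold enrichment was 5.58 in NS rottlerin and 3.66 in SW rottlerin, so it stood between NS and absence in both.

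At TFAP2C the leading region was called in the NS list alone, with a fold of 6.06 and a score of 171. The nearest peaks of the other lists lay 38.8 kb (SW DMSO), 38.7 kb (NS rottlerin) and 38.8 kb (SW rottlerin) away. Of the 3187 NS peaks in the NS list alone, this was the highest by score. The next had a score of 153, and the median of these peaks was 32.

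At PRSS58 the leading region had an NS fold of 7.22 and a score of 160, and ranked 296 by fold and 1498 by score in the NS list. It was absent from both SW-labelled lists, whose nearest peaks were 11.7 kb (SW DMSO) and 23.3 kb (SW rottlerin) away. In NS rottlerin it was called at 4.20-fold with a score of 48. Absence from every list other than NS therefore held at TFAP2C alone. At TECR and PROX1 only the list labelled SW DMSO had no peak, and at PRSS58 both SW-labelled lists had none.

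**Figure D1:**
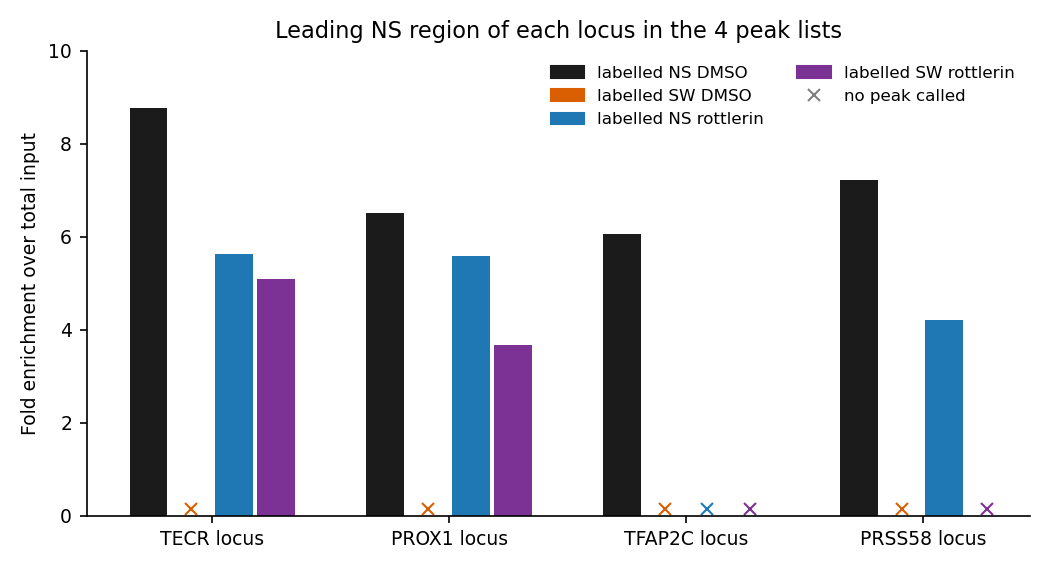
Fold enrichment over total input (y axis, from 0) of the leading NS region at each of the 4 loci (x axis) in the 4 peak lists (colours), with 1 library per list and no error bars; crosses mark lists with no peak. The NS bars stand at 8.77, 6.51, 6.06 and 7.22, no list labelled SW DMSO has a bar, and TFAP2C has the NS bar alone.

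None of the leading regions lay at the promoter of the gene they are named by. The TECR region was intergenic, 22.5 kb upstream of the TECR TSS, and by canonical TSSs nearer to GIPC1, a PDZ-domain adaptor of receptor trafficking, at 11.0 kb. The nearest start of any annotated transcript, 9.96 kb away, belonged to TECR. The PROX1 region was intergenic, 264.5 kb upstream of its TSS and 7.97 kb from the start of the lncRNA ENSG00000228255. The TFAP2C region was intergenic, 46.9 kb downstream of the TSS, with the small RNA pseudogene RNU6-1146P as the nearest annotated gene at 8.75 kb. The PRSS58 region lay 32.2 kb upstream of the TSS in an intron of PRSS3P3, a trypsinogen-type pseudogene, and 0.449 kb from the start of its canonical transcript.

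Over the 34 regions, 18 had an NS peak and 16 had none. Of the 18, 3 were in the NS list alone, 1 each at PROX1, TFAP2C and PRSS58 and 0 at TECR. Over all regions with an NS peak, 16.8% (3187 of 18920, 95% Wilson interval 16.3 to 17.4, for counting error only) were in the NS list alone, so the count at the loci was near the background. The rule bears on this count, and nothing is read from it.

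Against single lists, 9 of the 18 regions with an NS peak lacked a peak in SW DMSO, 5 in NS rottlerin and 7 in SW rottlerin. The background over all regions with an NS peak was 33.7%, 27.6% and 25.8%. The 4 leading regions are among the 9 by construction. The 16 regions without an NS peak compare with 53.5% of all 40703 regions. All 4 lists shared 7 of the 34 regions, beside 26.6% of all regions, and 1 was in all lists but NS, beside 7.08%.

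Regions found in 1 list were most often in the longest list. Of 15 such regions, 7 were in SW rottlerin, 4 in NS rottlerin, 3 in NS DMSO and 1 in SW DMSO. The list labelled SW rottlerin also held most peaks over the genome, and 7419 of all 40703 regions were in it alone. Over all regions the shares in 1 list alone were 18.2%, 8.42%, 7.83% and 4.32% in the same order of lists. The counts at the loci followed that order, and nothing is read from them.

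**Figure D2:**
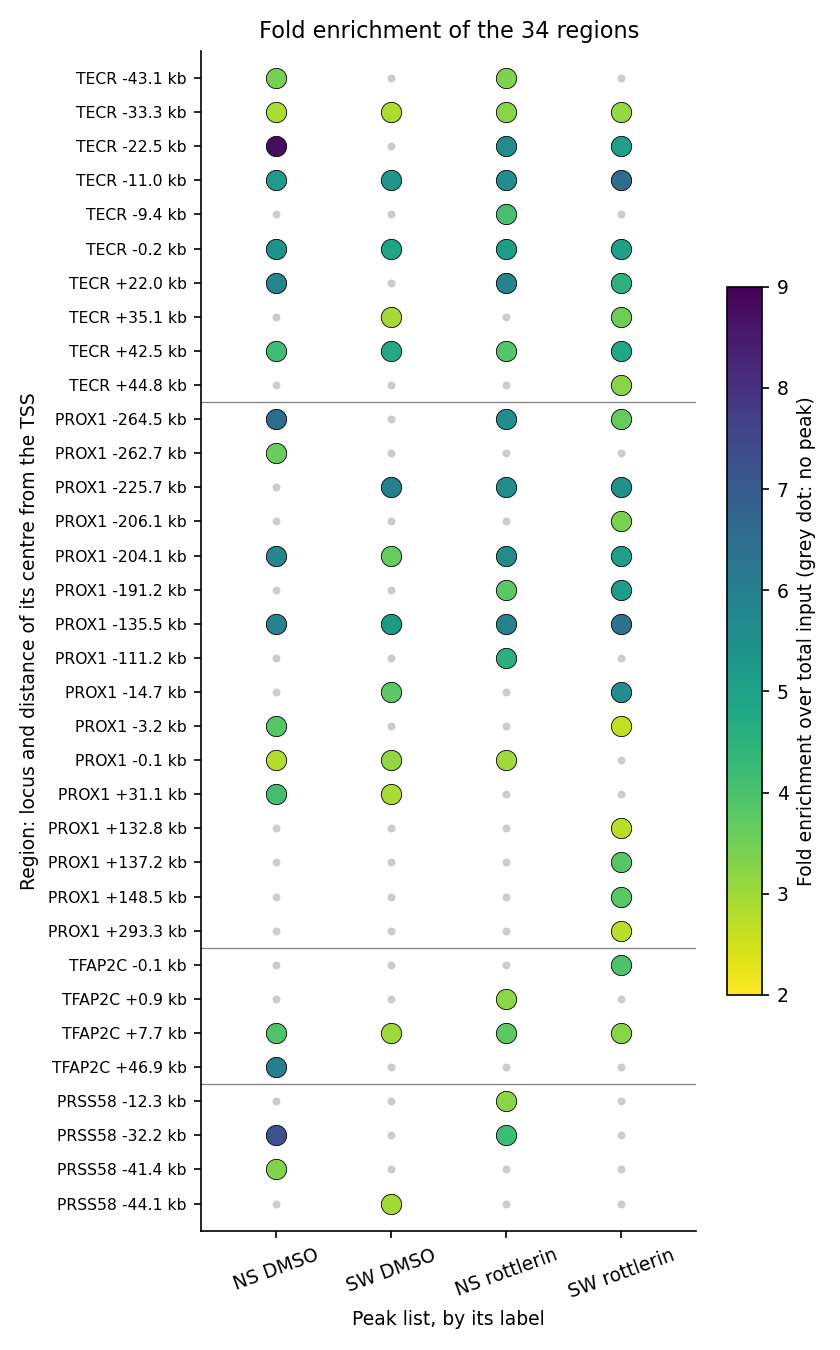
Each of the 34 regions (rows, by locus and distance of the region's centre from the TSS in kb, negative upstream) in the 4 peak lists (columns), coloured by fold enrichment over total input, with a grey dot where no peak was called. The promoters around TECR fill all 4 columns, and the leading regions are empty in the SW DMSO column. Of the 16 PROX1 rows 5 are filled by SW rottlerin alone, beside 18.2% of all regions.

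The TECR locus (gene ENSG00000099797.15_8, chr19:14627897-14676792, plus strand) combined promoters called in every list with distal regions that were not called in every list. The TECR promoter region, chr19:14640007-14640462, also spans MIR639 and a start of longer DNAJB1 transcripts. Its fold enrichment was 5.45 in NS DMSO, 4.91 in SW DMSO, 5.13 in NS rottlerin and 5.10 in SW rottlerin. The 4 values lay close together, while the leading region 22.5 kb upstream had no peak in SW DMSO, by the choice of the locus.

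The DNAJB1 promoter, of a heat-shock co-chaperone that is transcribed in the opposite direction and overlaps TECR, lay 11.0 kb upstream of the TECR TSS. Its fold enrichment was 5.17, 5.32, 5.54 and 6.56 in the same order of lists, highest in SW rottlerin. The GIPC1 promoter was weaker and flat, at 2.88, 2.89, 3.25 and 3.12. The promoter of NDUFB7, a subunit of mitochondrial complex I, gave 4.16, 4.78, 3.87 and 4.80. These 4 promoters, TECR included, thus had a peak in every list. Of all 20163 protein-coding genes, 7204 had a promoter peak in NS DMSO and 6403 had one in all 4 lists. Nothing particular to the locus is read from this.

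Away from the promoters of canonical transcripts the peak calls at the TECR locus differed between lists. An intronic region 21.99 kb downstream of the TSS, chr19:14662267-14662521, had the presence pattern of the leading region, with 5.81-fold in NS DMSO, 5.87 in NS rottlerin and 4.51 in SW rottlerin and no peak in SW DMSO. A region in a GIPC1 intron, 43.1 kb upstream, was in both NS-labelled lists, at 3.47-fold in NS DMSO and 3.34-fold in NS rottlerin. The 3 TECR regions with an NS peak and no SW DMSO peak thus all lay away from canonical promoters. The intronic one was 1.24 kb from the start of another DNAJB1 transcript. In the other direction, a region 35.1 kb downstream, near the end of TECR, was called only in the SW-labelled lists. It had 2.96-fold in SW DMSO and 3.59-fold in SW rottlerin, and it spans the start of another TECR transcript. The remaining regions of the locus were each in 1 list, 9.43 kb upstream of the TSS in NS rottlerin (4.06-fold) and 44.8 kb downstream in SW rottlerin (3.24-fold).

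PROX1 (gene ENSG00000117707.17_12, chr1:214156524-214214853, plus strand) lies in a stretch with few coding genes, and SMYD2, a lysine methyltransferase, was the only other one with a TSS within 300 kb. The region at the PROX1 TSS, chr1:214161149-214161337, was narrow and weak. Its fold enrichment was 2.80 in NS DMSO, 3.17 in SW DMSO and 3.00 in NS rottlerin, with no peak in SW rottlerin. In the NS list 97.7% of peaks had a fold at or above this value.

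Upstream of PROX1 the regions called in every list were stronger than the one at its TSS. Regions 204.1 kb and 135.5 kb upstream were called in all 4 lists. The former, in an intron of ENSG00000228255, had 5.76-fold in NS DMSO, 3.69 in SW DMSO, 5.63 in NS rottlerin and 5.07 in SW rottlerin. The latter, in an intron of the antisense lncRNA PROX1-AS1, had 5.92, 5.22, 5.86 and 6.36. The SW DMSO value was the lowest of the 4 at both, and the difference was larger at the former.

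A region 225.7 kb upstream, chr1:213935450-213935791, was the converse of the leading region in the DMSO-labelled lists. It had no NS peak and was called in the 3 other lists, at 5.99-fold in SW DMSO, 5.58 in NS rottlerin and 5.48 in SW rottlerin, and the nearest NS peak was 21.1 kb away. This was the SW DMSO peak nearest to the leading region, 38.5 kb from it. Of these distal sites NS DMSO held the one and SW DMSO the other, and both rottlerin-labelled lists held both. Its central 300 bp held AP-1 TGAGTCA and an ETS match and no E-box core, as the capitals in its sequence show.

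Around these, the NS-alone region, chr1:213898514-213898710, stood 262.7 kb upstream with 3.60-fold, next to the leading region. A region 191.2 kb upstream was called in both rottlerin-labelled lists, at 3.76-fold in NS rottlerin and 5.17-fold in SW rottlerin. A region 14.7 kb upstream was called in both SW-labelled lists, at 3.76-fold in SW DMSO and 5.56-fold in SW rottlerin. Near the gene itself, a region 3.16 kb upstream had 3.84-fold in NS DMSO and 2.63-fold in SW rottlerin. An intronic region 31.1 kb downstream had 4.12-fold in NS DMSO and 2.91-fold in SW DMSO.

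The other 6 PROX1 regions were each in 1 list. A region 111.2 kb upstream was in NS rottlerin at 4.57-fold. The remaining 5 were in SW rottlerin, with folds from 2.72 to 3.85, and included the SMYD2 promoter at 2.76-fold. Downstream of the PROX1 gene body the regions up to 300 kb were all in SW rottlerin alone. That list was the longest, and 18.2% of all regions were in it alone.

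**Figure D3:**
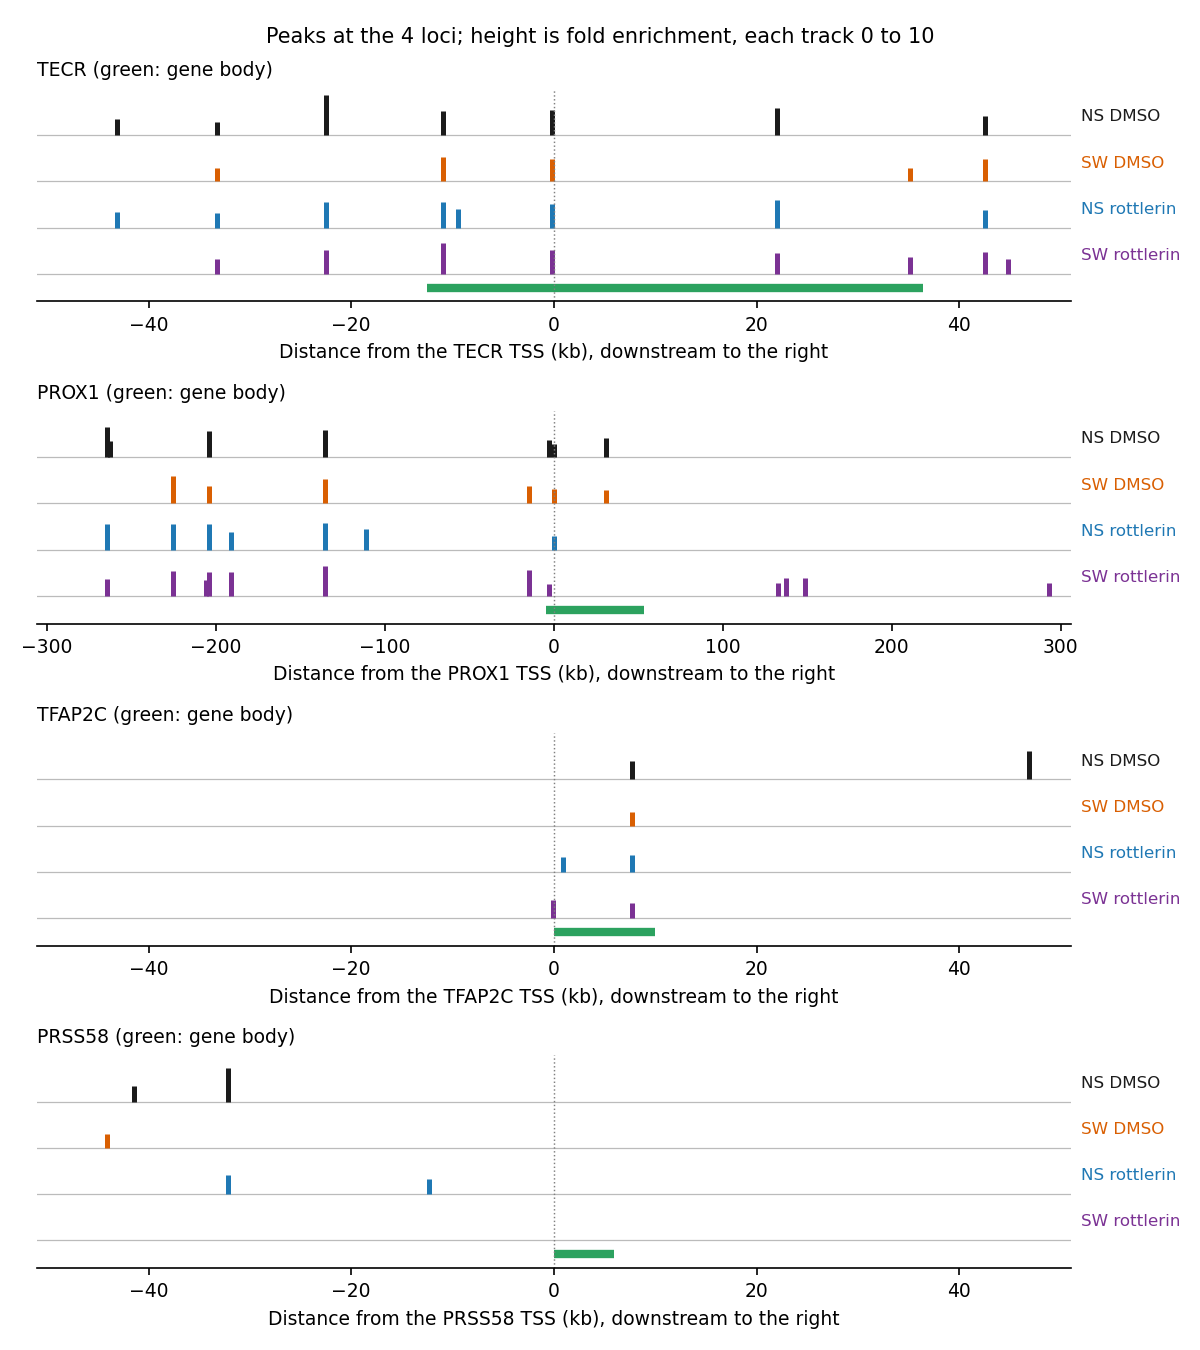
Peaks at the 4 loci in the 4 lists (tracks), with distance of each region's centre from the TSS in kb on the x axis (negative upstream, in the direction of transcription), bar height as fold enrichment over total input, the gene body in green and the TSS as a dotted line. The leading NS bars stand 22.5 kb upstream at TECR, 264.5 kb upstream at PROX1, 46.9 kb downstream at TFAP2C and 32.2 kb upstream at PRSS58, each with no bar below it in the SW DMSO track.

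At TFAP2C (gene ENSG00000087510.7_6, chr20:55204362-55214339, plus strand) the distal and the promoter regions were in different lists. The leading region was in NS DMSO alone. The promoter had a peak in the rottlerin-labelled lists only, from separate regions: chr20:55204136-55204346, 0.121 kb upstream of the TSS, at 3.97-fold in SW rottlerin, and chr20:55205211-55205387, 0.937 kb downstream, at 3.18-fold in NS rottlerin.

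The remaining TFAP2C region lay in an intron 7.73 kb downstream of the TSS and was called in all 4 lists. Its fold enrichment was 3.94 in NS DMSO, 3.03 in SW DMSO, 3.73 in NS rottlerin and 3.23 in SW rottlerin. The values in the SW-labelled lists were the lower ones. TFAP2C was the only protein-coding gene with a TSS within 50 kb.

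At PRSS58 (gene ENSG00000258223.6_8, chr7:141951963-141957878, minus strand) no list had a peak at the promoter or in the gene body. All 4 regions lay upstream of the gene, towards the V segments of the T-cell receptor beta locus. One in an intron of the pseudogene PRSS59P, 12.3 kb upstream, was in NS rottlerin at 3.21-fold. One over TRBV1, a V pseudogene 41.4 kb upstream, was in NS DMSO alone at 3.30-fold. One beside TRBV2, a V gene, 44.1 kb upstream, was in SW DMSO alone at 2.98-fold. No region of this locus was in all 4 lists, and the list labelled SW rottlerin had no peak there.

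Promoter peaks separated the 4 genes and their coding neighbours. GIPC1, DNAJB1, TECR and NDUFB7 had one in all 4 lists, PROX1 in 3, TFAP2C in 2, SMYD2 in 1 and PRSS58 in none. Over all 20163 protein-coding genes the share with a promoter peak was 35.7% in NS DMSO, 36.9% in SW DMSO, 40.4% in NS rottlerin and 44.8% in SW rottlerin.

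Of 14 genes of fatty acid elongation, the pathway of TECR, 3 had a promoter peak in NS DMSO, 5 in SW DMSO, 6 in NS rottlerin and 8 in SW rottlerin. Those in all 4 lists were TECR, the elongase ELOVL4 (5.54-fold in NS DMSO) and the dehydratase HACD2 (3.97-fold). The elongase ELOVL5 and the reductase HSD17B12 had a peak in the 3 lists other than NS. ELOVL1, HACD1 and HACD3 had one in SW rottlerin alone, and ELOVL3 in NS rottlerin alone. The count rose with the number of peaks in the list, as the share of all coding genes did.

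Few of the genes related to PROX1 and TFAP2C had a promoter peak, beside 47.3% of all protein-coding genes in at least 1 list. Of 8 genes of prospero homeobox and lymphatic identity, among them PROX2, FLT4, LYVE1 and PDPN, PROX1 alone had a promoter peak. Of the 5 AP-2 genes TFAP2C alone had one. None of the 3 trypsin-like genes matched, PRSS1, PRSS3 and PRSS58, had one in any list.

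Where a region was called in the NS list and in another, the ratio of the fold enrichments was set beside that of all such regions. The median ratio to NS over all regions was 0.980 for SW DMSO, 1.04 for NS rottlerin and 1.06 for SW rottlerin. At the TECR leading region the ratio was 0.642 for NS rottlerin and 0.579 for SW rottlerin, and 0.898% and 0.385% of all regions had a lower one. At the PRSS58 leading region it was 0.582 for NS rottlerin, with 0.307% of regions lower. At the PROX1 leading region it was 0.857 for NS rottlerin, with 13.8% lower, and 0.562 for SW rottlerin, with 0.271% lower. The NS value that chose these regions is the denominator, and a region chosen for a high NS value has a low ratio more often.

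Other regions of the loci lay on both sides of the median. The TECR promoter had ratios of 0.901, 0.942 and 0.936 for SW DMSO, NS rottlerin and SW rottlerin. The DNAJB1 promoter had 1.03, 1.07 and 1.27, with 83.5% of regions lower in SW rottlerin. The NDUFB7 promoter had 1.15, 0.931 and 1.15, with 82.6% lower in SW DMSO. In SW DMSO the lowest ratio was that of the PROX1 region 204.1 kb upstream, at 0.640, with 1.40% of regions lower, followed by the PROX1 intronic region 31.1 kb downstream at 0.706, with 3.81% lower. The PROX1 region 3.16 kb upstream had a ratio of 0.685 in SW rottlerin, with 1.89% lower.

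**Figure D4:**
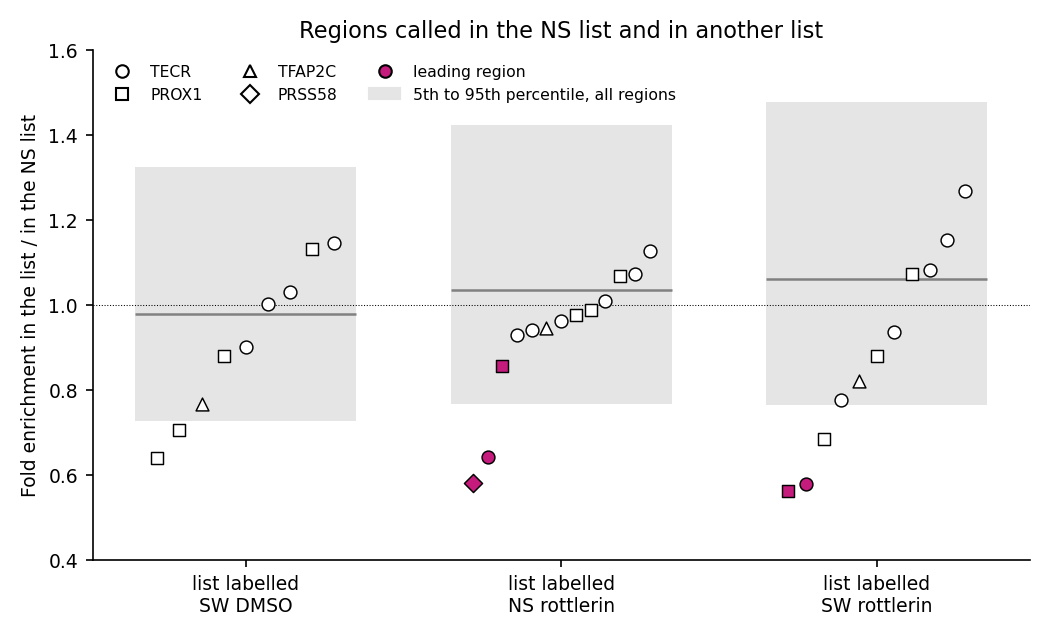
Fold enrichment in each of the 3 other lists divided by that in the NS list (y axis, linear) for regions of the 4 loci called in both (symbols by locus, filled for leading regions), with the median (grey line) and the 5th to 95th percentile (grey band) of all regions called in both. Leading regions stand at 0.582 and 0.642 for NS rottlerin and 0.562 and 0.579 for SW rottlerin, below the bands, and the PROX1 leading region at 0.857 lies inside the NS rottlerin band.

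The leading regions held fewer CpG dinucleotides than the promoters, and all but the PROX1 one held more than the median region. The GC content of their central 300 bp was 55.7% at TECR, 47.0% at PROX1, 54.3% at TFAP2C and 48.3% at PRSS58, beside a median of 46.3% over all regions and 50.0% over those with an NS peak. They held 8, 2, 10 and 10 CpG dinucleotides in that order, beside a median of 4 over all regions and 6 over those with an NS peak. Regions in the NS list alone, to which the TFAP2C one belongs, had medians of 43.3% GC and 3 CpG. The promoters at the loci were richer, with 45 CpG at DNAJB1, 34 at SMYD2, 30 at GIPC1, 27 at TECR and 17 at NDUFB7, and 33 and 31 in the regions at the TFAP2C TSS. The region at the PROX1 TSS had 15.

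**Figure D5:**
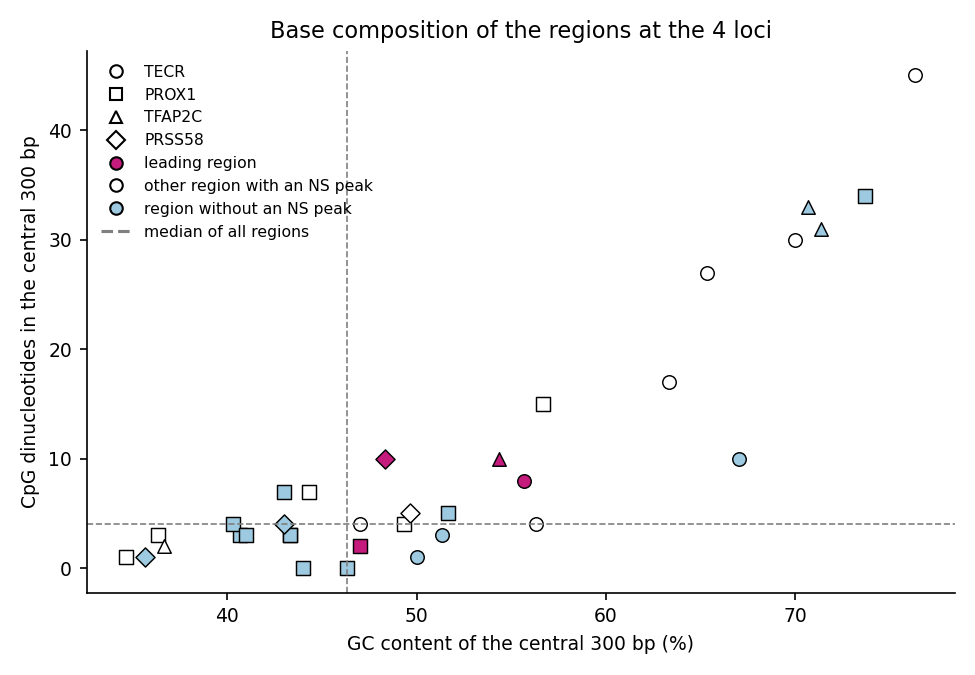
CpG dinucleotides (y axis) against GC content in % (x axis) in the central 300 bp of the 34 regions (symbols by locus, leading regions filled dark, regions without an NS peak filled light), with dashed lines at the medians of all regions, 46.3% and 4. The leading regions hold 2 to 10 CpG, and promoters such as DNAJB1 with 45 and the TFAP2C TSS regions with 33 and 31 stand at the upper right.

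The TFAP2C leading region held both CACCTG and CAGCTG, cores bound by many bHLH factors, among them the E proteins of T cells. Its RUNX match started 9 bases before the start of CACCTG. Its central 300 bp held no AP-1, ETS, AP-2 or CTCF match. It also held no match to GATA, searched as AGATAA and as TGATAA, to NFAT, searched as TGGAAA, to TCF7L2, searched as CTTTGAT and as CTTTGAA, or to EGR, searched as GCGGGGGCG and as GCGTGGGCG.

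CACCTG or CAGCTG was present in 34.3% of all regions, 38.7% of those with an NS peak and 51.9% of the 3187 regions in the NS list alone. CACCTG by itself was in 21.4%, 25.3% and 39.8%. Over the 34 regions of the loci, 16 held either core, and 6 of the 16 regions without an NS peak did. AP-1 was found in 5 of the 34 regions, 4 of them without an NS peak, beside 13.2% of all regions, 5.55% of those with an NS peak and 2.67% of the NS-alone regions. The other motifs were present in these shares of all regions: CAGCTG 17.1%, CATCTG 21.4%, ETS 12.9%, RUNX 17.7%, GATA 31.5%, NFAT 27.9%, TCF7L2 15.0%, AP-2 12.5%, EGR 2.51% and CTCF 1.70%. These are counts over few regions, and a match is not a site of binding.

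Sequence that occurs more than once in the genome bears on where reads can be placed. At the TECR leading region 39 of 233 stretches of 32 bases had further exact copies, up to 9093 in all. At the PROX1 leading region 8 of 384 were repeated, with up to 3 copies, and at the PRSS58 one 3 of 232, with up to 281 copies. None of 242 was repeated at TFAP2C. Of the 30 regions other than the leading ones, 27 held no repeated stretch, and the highest share was 21.5%, at the region near the end of TECR. The part of repeated sequence in the peak calls was not tested.

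The windows set which regions were counted. At TECR the outermost region inside lay 44.7 kb from the TSS, and the nearest outside lay 75.8 kb away with 7.07-fold in NS DMSO and 3.85-fold in SW DMSO. At PROX1 the outermost region was at 293.1 kb and the next at 317.3 kb. At TFAP2C the leading region was the outermost, its nearer edge 46.7 kb from the TSS, and the next region stood at 74.1 kb. At PRSS58 the outermost lay at 44.02 kb and the next at 55.6 kb.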

How the data were processed

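FAIRE-seq peak lists of 4 libraries, 1 per group, were analysed. The study's methods state that the authors clipped adapters (CutAdapt), aligned to hg19 (Bowtie2), dropped duplicates (Picard) and ran MACS2 in Broad mode with the total input as control. Tool versions are not given in the sources used here. Each deposited list gives the peak score, a ratio (fold enrichment over total input) and −log10 of the p-value and q-value. They do not hold read depth, and no error could be computed.

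Peaks that overlapped or touched were merged with bedtools 2.31.1. A further 28 regions on other sequences were not used. Genes, canonical-transcript TSSs and sequence came from GENCODE 44 on GRCh37, which is the build hg19; a gene's nearest TSS was searched over all gene types. Distances run from a region's centre, signed by the named gene's strand. GC, CpG and motifs were read in the central 300 bp (Python 3.11.15, pandas 2.3.3, pysam 0.24.0). CTCF was searched by its consensus, and copies as exact matches of 32 bases on both strands, a measure added after the sequences had been seen. Scripts were tested on simulated data. Text names the 4 genes, coding neighbours, each region's nearest gene and list genes with a promoter peak. The loci, gene lists and tests were chosen with earlier results of these data known. Of the trypsin-like list 3 of 4 genes matched. The alternatives were other joining rules, peak cut-offs and windows. A peak ranked 2 in the choice, and the sequences of some regions, are not reported here.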

Additional observations from a re-analysis of the deposited data

How the results depend on the processing

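No paired analysis was possible because each list is 1 library and no test was made. Of 37 alternative values for the whole set, 25 stayed within 1.5 times the main count, or within the counting interval for the share, and 12 did not. With the same number of highest-scoring peaks in each list, 5 regions were in the NS list alone, 9 had no NS peak, and the share over all NS regions was 22.8%. With the higher-scoring 50% of each list, 17 regions were left, 5 without an NS peak and 12 with one, 4 of these in the NS list alone, and the share over all NS regions was 14.0%. Windows of 25 kb (150 kb at PROX1) left 19 regions, 9 with an NS peak, 0 in the NS list alone and 10 without an NS peak. Windows of 100 kb (600 kb at PROX1) gave 26 regions without an NS peak. Joining peaks within 1 kb gave a share of 16.3%. The TFAP2C leading region was in the NS list alone under all 3 cut-offs on peaks. These cut-offs only remove peaks and could add none in the other lists, so they do not check its absence there. The PROX1 leading region lost its SW rottlerin peak under the equal-number and 50% cut-offs, and the PRSS58 one its NS rottlerin peak under the 50% cut-off. Windows from the 5′ end of the gene record, added after seeing the data, moved none of these counts beyond 1.5 times. Depth is unknown, so absence from a list is not absence of open chromatin.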

Other observations

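Between 50 and 100 kb from the TSS, and between 300 and 600 kb at PROX1, 17 further regions were found. A run of 8 regions lay between 440.1 kb and 483.9 kb downstream of the PROX1 TSS. Their nearest coding TSS was that of PTPN14, a tyrosine phosphatase gene, and they lay 79.7 to 123.6 kb downstream of it. Of these, 4 were in SW rottlerin alone, the longest list, beside 18.2% of all regions. In all 4 lists, beside 26.6% of all regions, was 1 of them. It had 2.84-fold in NS DMSO, 4.07 in SW DMSO, 4.14 in NS rottlerin and 4.19 in SW rottlerin. A region 458.4 kb downstream was in all lists but NS DMSO, beside 7.08% of all regions, and was highest in SW rottlerin, at 5.84-fold. These are counts over few regions, and nothing is read from them. Upstream of PRSS58, among the beta V segments, a region at −88.2 kb from the TSS was in all 4 lists, at 3.51-fold in NS DMSO and 4.95-fold in NS rottlerin. Near CLEC17A, 75.9 kb downstream of the TECR TSS, a region was in both DMSO-labelled lists, at 7.07-fold in NS DMSO and 3.85-fold in SW DMSO.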
